A study of Homo sapiens with 12 samples.

Results

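The comparison described here is that of HK-2 cells exposed for 48 h to a compound called Ra with HK-2 cells exposed to its vehicle for the same time. It rests on 6 of the 12 arrays of the series, 3 labelled Ra and 3 labelled control, which were chosen by the treatment and time in their labels. HK-2 is an immortalised line derived from the epithelium of the human kidney's proximal tubule, and the series looks for expression signatures of toxicity to the kidney. Cells were grown in medium with epidermal growth factor, hydrocortisone, insulin, transferrin and selenite, and treatment began when they were nearly confluent. Ra-treated and control cells carried no other agent or genetic change that the labels name. The other 6 arrays, Ra and control at 12 h with 3 arrays each, enter the fit and serve as a reference in time. The identity of Ra and its dose are not stated in the labels used here. One cell line stands in for the kidney in all arrays, and the labels call the 3 samples of a group biological replicates without saying what separates them.

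When amino acids run short, heme is lacking or unfolded protein builds up in the endoplasmic reticulum, kinases phosphorylate the initiation factor eIF2. General translation then slows while the factor ATF4 is made, and ATF4 drives genes for amino acid transport, amino acid synthesis and the charging of transfer RNA. The factor CHOP, encoded by DDIT3, acts with it. Unfolded protein also acts through ATF6 and through IRE1 and XBP1, which drive the chaperones of the endoplasmic reticulum. E2F factors govern genes that dividing cells need to enter S phase and copy their DNA.

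Levels are GCRMA log2 values after quantile normalization over all probe sets, so a difference of 1 log2 unit is a factor of 2. Each gene is represented by 1 probe set, and 10050 genes had enough signal to be tested. A gene is said to rise or fall when the limma test of Ra against control at 48 h gave an adjusted p of at most 0.05 over these 10050 genes. The words give the sign of Ra minus control at 48 h, and not a change since 12 h. Differences carry their standard error (SE) from that fit, with 3 arrays in each group. Values under 5 log2 units lie near the arrays' background, where the size of a difference depends on GCRMA's background model. In RNA from whole cultures, fewer cells of a kind and less RNA per cell cannot be told apart.

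The label of the cells was checked first. The epithelial keratins KRT18 (12.63 to 13.24 log2 units over the 6 arrays) and KRT8 (11.07 to 11.83) and the renal factor PAX8 (10.99 to 11.66) were well above background. Of 34 genes fixed for the identity of the proximal tubule, 11 reached the signal threshold. The epithelial cadherin CDH1 was low, at 6.70 to 8.31 in control cells and 5.90 to 6.62 with Ra, and its difference of -1.25 ± 0.45 did not pass (limma adjusted p = 0.0814). Of the markers of other cells, the signal threshold was reached by 3 of 9 for fibroblasts, 1 of 10 for endothelium, 2 of 6 for podocytes and 0 of 9 each for immune cells and the distal nephron. Not all of these were on the array, which held 4 of the podocyte, 7 of the immune and 8 of the distal nephron markers. The summed log2 levels of the listed immune markers on the array were 17.02 to 17.31 in control cells and 17.03 to 17.38 with Ra, with all 7 under 5 on average. Summed fibroblast marker levels were 40.7 to 44.2 against 42.2 to 44.7, endothelial 30.1 to 30.5 against 30.7 to 33.6, distal nephron 23.9 to 24.9 against 23.8 to 25.1, and podocyte 17.8 to 19.5 against 17.9 to 20.3. None of the 6 measured markers of other cells passed the limma test, and 1 of them, the collagen gene COL1A1, had an unadjusted p under 0.05. The genes GAPDH and ACTB, often used as references, differed by 0.02 ± 0.08 and 0.20 ± 0.07 log2 units.

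At 48 h, 1316 of the 10050 genes differed between Ra and control cells (13.1%). Of these 686 were higher with Ra (6.83%) and 630 were lower (6.27%). A change of at least 2-fold was reached by 579 genes (5.76%), of which 297 rose (2.96%) and 282 fell (2.81%). The falls were larger at their extreme: the 12 largest ran from -3.20 (ITPKA) to -6.49 (INHBE) log2 units, and the 12 largest rises from 2.12 (SMAD3) to 2.56 (LYPD1). In 1248 of the 1316 genes the 3 Ra arrays did not overlap the 3 control arrays, which held for 34.6% of all genes.

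**Figure D1:**
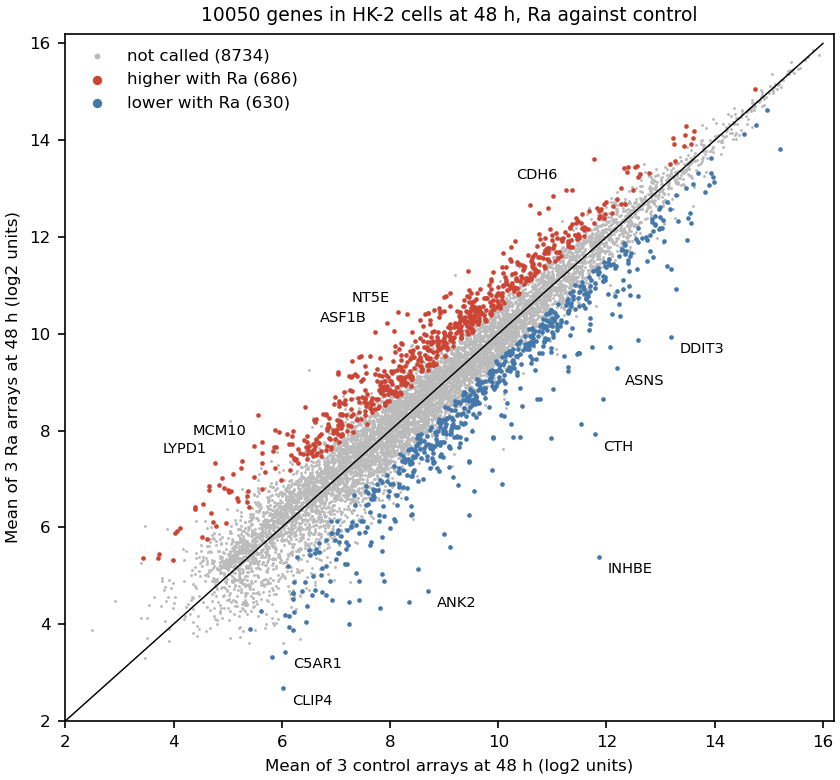
Mean level of each of the 10050 genes in control cells (horizontal axis, log2 units) and Ra-treated cells (vertical axis, log2 units) at 48 h, 3 arrays each. Red points are the 686 genes higher with Ra, blue points the 630 lower, grey points the genes that did not pass, and the line marks equal levels; INHBE, with means of 11.87 and 5.39, lies farthest below it, and the named genes are examples from both sides.

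These counts depend on how the arrays are scaled and on single arrays. Ra replicate 2 has a narrower scale than the other 11 arrays as deposited (SD over probe sets 2.81, against 3.09 to 3.14), and in the deposited values, with the same limma fit, 0 genes passed and 1730 had an unadjusted p under 0.05. Without that array, 575 genes passed in the deposited values, 366 higher and 209 lower, and 694 after quantile normalization. With 1 variance for all 4 groups, the deposited values gave 301 genes higher and 961 lower, where the median difference of all genes was -0.20 against 0.01 after quantile normalization. The numbers also fell to 0 without control replicate 2 (1811 at an unadjusted p under 0.05) or without Ra replicate 3 (2211), and were 306 without control replicate 1 and 2582 without control replicate 3. All 1316 genes kept the sign of their difference in each of these refits. Every count by gene list below is therefore 0 without either of control replicate 2 and Ra replicate 3. For lists described at length, the counts are also given without control replicate 1, control replicate 3 or Ra replicate 2, in this order.

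The 6 arrays did not form 2 tight groups. Control replicate 3 correlated more closely with Ra replicate 1 (Pearson's r = 0.980 over genes) than with control replicate 1 (0.961) or control replicate 2 (0.977). Ra replicate 1 correlated with control replicates 1 and 2 at 0.952 and 0.965, lower than control replicate 3 did. With Ra replicates 2 and 3, Ra replicate 1 correlated at 0.956 and 0.976, and control replicate 3 at 0.946 and 0.962. Whether these 2 samples were exchanged was not tested, and the labels were kept as given. All 1316 genes kept the sign of their difference without control replicate 3 (2582 passed) and without Ra replicate 1 (1025 passed). A fit without both arrays, or with their labels exchanged, was not made. Among the 630 genes that fell, control replicate 3 was the lowest of the control arrays for 509, and Ra replicate 1 was the highest of the Ra arrays for 479. Among the 686 that rose, control replicate 3 was the highest of the control arrays for 580, and Ra replicate 1 was the lowest of the Ra arrays for 493. For most changed genes, then, these 2 arrays lay on the inner side of their groups. Replicates were looser at 48 h: the median SD of a gene was 0.22 for the controls and 0.23 for Ra, against 0.12 and 0.13 at 12 h.

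The largest fall was that of INHBE, which encodes the beta-E subunit of inhibins and activins, proteins secreted by cells. Its level was 12.35, 11.88 and 11.40 log2 units in the 3 control arrays and 9.45, 3.39 and 3.31 in the Ra arrays. The difference was -6.49 ± 1.51 (limma adjusted p = 0.0182). Ra replicates 2 and 3 were at background, so the size of the fall depends on the background model, while Ra replicate 1 kept a clear signal below all control arrays. The same split within the Ra group was seen for CTH, the enzyme that makes cysteine from cystathionine, with 12.10, 12.05 and 11.20 in control cells and 10.73, 6.75 and 6.32 with Ra. Its difference was -3.86 ± 0.83 (limma adjusted p = 0.0141), and a further probe set gave -4.64.

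ANK2, an ankyrin that ties membrane proteins to the cytoskeleton, measured 8.97, 9.22 and 7.96 in control cells and 6.26, 2.88 and 4.94 with Ra. CAMTA2, a calmodulin-binding transcription activator, measured 9.36, 8.84 and 7.38 against 6.44, 3.74 and 5.23, and ITPKA, a kinase of inositol trisphosphate, measured 10.17, 9.59 and 8.60 against 7.91, 4.81 and 6.02. Each of these fell by over 3 log2 units, with no overlap between the groups (ANK2 -4.02 ± 0.68, CAMTA2 -3.39 ± 0.68, ITPKA -3.20 ± 0.64). CLIP4, a relative of the microtubule-binding CLIP proteins, was at 6.82, 5.99 and 5.27 in control cells and at background on the 3 Ra arrays (2.72, 2.61 and 2.70). IL20RB, a receptor subunit for cytokines of the interleukin-20 group, stood at 8.78, 7.44 and 5.54 in control cells and at 4.38, 3.43 and 4.22 with Ra. H2AC6, a core histone gene, stood at 8.88, 8.25 and 6.32 against 6.25, 3.37 and 3.42, the closest approach of the groups among the 12. CLIP4, IL20RB and H2AC6 passed the filter on signal only with the control arrays of 48 h, the group where they are high, so their calls had to be falls and support nothing. Of all genes called, 16 falls depended in this way on the control arrays and 2 rises on the Ra arrays of 48 h. In these last 3 genes the control arrays themselves were widely spread, with replicate 3 the lowest. The remaining falls of the 12, ALDH1L2, SLC7A11, ATF3 and DDIT3, are described with their pathways.

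**Figure D2:**
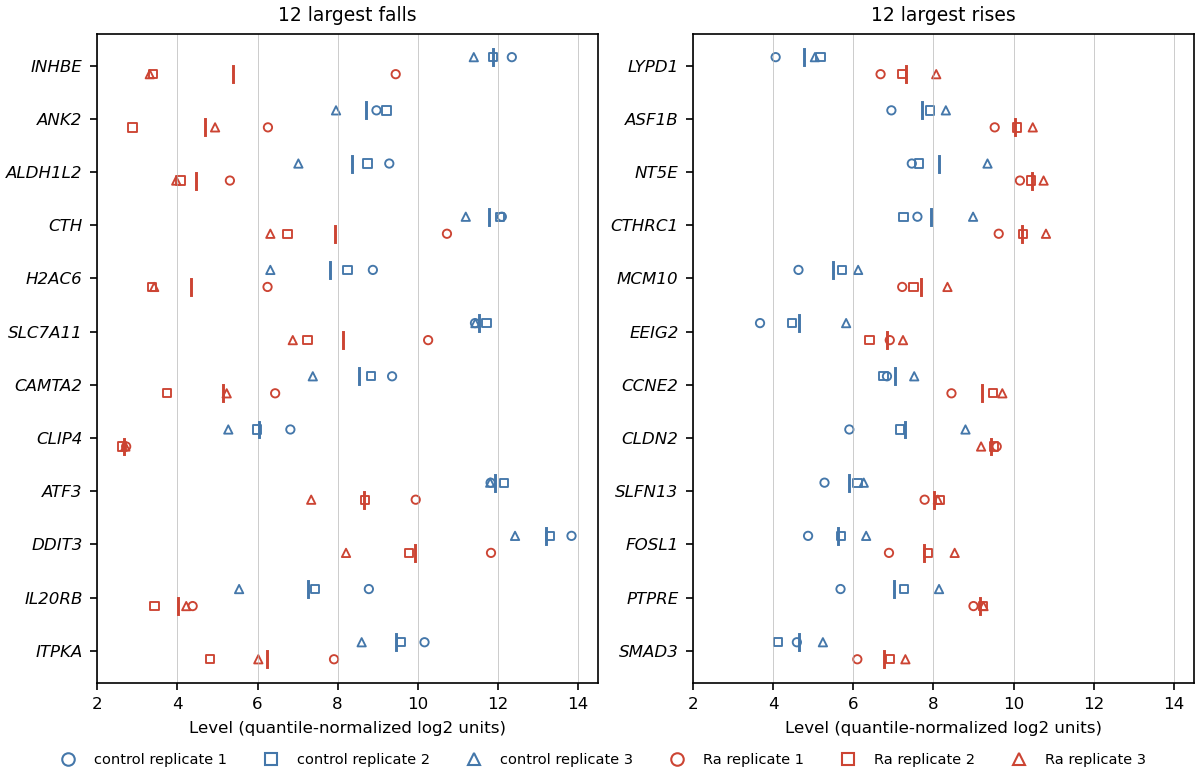
Quantile-normalized level (horizontal axis, log2 units) of the 12 largest falls (left) and 12 largest rises (right) among genes that passed the test, changed at least 2-fold and did not overlap. Blue symbols are control and red symbols Ra arrays at 48 h, the shape gives the replicate and the vertical bar the group mean; Ra replicate 1 (red circles) lies nearest to the control arrays for most falls.

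The rises were more even between arrays. LYPD1, a membrane-anchored protein of the Ly-6 family, had the largest at 2.56 ± 0.50 log2 units (limma adjusted p = 0.0109), with 4.06, 5.18 and 5.04 in control cells and 6.68, 7.22 and 8.07 with Ra. NT5E, the ectoenzyme CD73 that turns extracellular AMP into adenosine, rose from 7.46, 7.64 and 9.35 to 10.16, 10.44 and 10.75. CTHRC1, a secreted collagen triple helix repeat protein, rose from 7.60, 7.25 and 8.99 to 9.63, 10.23 and 10.81. In NT5E and CTHRC1 control replicate 3 was the highest control array and still below the lowest Ra array. The differences were 2.30 ± 0.41 and 2.28 ± 0.41, with smaller values of 1.19 and 0.97 from the other probe sets of NT5E. CLDN2, a claudin that forms cation-permeable pores in proximal tubule junctions, measured 5.90, 7.16 and 8.80 in control cells and 9.58, 9.51 and 9.19 with Ra (2.14 ± 0.57). PTPRE, a protein tyrosine phosphatase, measured 5.68, 7.26 and 8.14 against 9.00, 9.24 and 9.25 (2.13 ± 0.45). For both, the Ra arrays lay close together while the control arrays were widely spread, with replicate 1 the lowest. EEIG2 (2.19 ± 0.52) and SLFN13, a Schlafen family member (2.14 ± 0.38), complete this group with the cell cycle genes ASF1B, MCM10 and CCNE2, the AP-1 subunit FOSL1 and the TGF-beta mediator SMAD3.

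Regulators of the integrated stress response were lower with Ra. Of 18 measured, 9 fell and 0 rose, with a median difference of -1.08 log2 units against 0.01 over all genes tested. The 9 were DDIT3, ATF3, CHAC1, SESN2, CEBPG, PPP1R15A, TRIB3, DDIT4 and EIF2AK3. DDIT3 fell by 3.25 ± 0.65 (limma adjusted p = 0.0112), from 13.84, 13.31 and 12.43 in control cells to 11.83, 9.79 and 8.21 with Ra. ATF3, a repressor of the same family as ATF4, fell by 3.28 ± 0.69, from 11.82, 12.16 and 11.81 to 9.95, 8.68 and 7.34. The 3 control arrays of ATF3 lay close together, and the Ra arrays were widely spread with replicate 1 the highest.

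Several feedback regulators of the same response moved with them. PPP1R15A, the phosphatase subunit GADD34 that reverses eIF2 phosphorylation, had the lowest adjusted p of the 9, with 9.38, 9.91 and 9.05 in control cells and 7.55, 7.27 and 7.33 with Ra (-2.06 ± 0.26, limma adjusted p = 0.00452). SESN2, a leucine sensor that restrains mTORC1, fell by 2.41 ± 0.43 and DDIT4, another inhibitor of mTORC1, fell by 1.55 ± 0.36. TRIB3, a pseudokinase that binds ATF4 and AKT, fell by 1.71 ± 0.31 and CEBPG, a partner of ATF4, fell by 2.10 ± 0.37. EIF2AK3, the kinase PERK, fell by 1.19 ± 0.26. CHAC1, which degrades glutathione, overlapped between the groups: 7.73, 7.27 and 8.66 in control cells against 7.28, 3.81 and 3.55 with Ra (-3.01 ± 0.89, limma adjusted p = 0.0438). It passed the filter on signal only with the control arrays of 48 h, so its call had to be a fall and supports nothing. CHAC1 is the 1 gene of the 9 for which this holds.

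The number of falling regulators was 6, 10 and 7 without control replicate 1, control replicate 3 or Ra replicate 2. The remaining 9 regulators did not pass. ATF4 itself was 13.20, 13.29 and 13.30 in control cells and 12.86, 12.50 and 11.80 with Ra, a difference of -0.87 ± 0.33 (limma adjusted p = 0.0955). CEBPB differed by -0.97 ± 0.31 (0.0548) and NFE2L1, a factor that acts on proteasome genes, by -0.56 ± 0.18 (0.0518). For these 3 the groups did not overlap. JDP2 (-0.47 ± 0.26), EIF2S1 (-0.16 ± 0.13), VLDLR (-0.11 ± 0.25), KLHL24 (0.00 ± 0.37), the amino acid sensor kinase EIF2AK4 (0.25 ± 0.19) and ATF5 (0.26 ± 0.25) stood closer to 0.

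Secreted products of stressed cells were measured for 6 genes, of which INHBE and VEGFA fell (0, 3 and 0 fell without control replicate 1, control replicate 3 or Ra replicate 2). VEGFA, the vascular growth factor, went from 12.61, 12.55 and 12.13 to 11.90, 10.67 and 9.87 (-1.62 ± 0.35, limma adjusted p = 0.0142). STC2, a glycoprotein hormone, differed by -1.87 ± 0.67 without passing (0.0806), although its arrays did not overlap. GDF15 was 13.37, 13.34 and 12.83 in control cells and 13.42, 12.34 and 11.90 with Ra, so that the highest Ra array exceeded all control arrays (-0.63 ± 0.40). The death receptor gene TNFRSF10B (-0.33 ± 0.15) and ANGPTL4, near background (0.22 ± 0.74), did not pass.

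Amino acid transporters followed the same order of arrays. Of 16 measured, 6 fell and 1 rose, with a median of -0.40. SLC7A11, the cystine importer, fell from 11.43, 11.72 and 11.44 to 10.26, 7.25 and 6.88 (-3.40 ± 1.05, limma adjusted p = 0.0497). SLC3A2, the heavy chain that SLC7A11 and SLC7A5 share, fell by 1.97 ± 0.41, and SLC7A5, the carrier of large neutral amino acids, fell by 2.05 ± 0.61. The cationic amino acid carrier SLC7A1 fell by 0.80 ± 0.21, SLC1A4 by 0.76 ± 0.24 and SLC38A1 by 0.41 ± 0.12. SLC25A15, the mitochondrial ornithine carrier, rose by 1.36 ± 0.32 (limma adjusted p = 0.0183). The count of falling transporters was 0 without control replicate 1, 7 without control replicate 3 and 1 without Ra replicate 2.

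Enzymes that make serine, glycine, asparagine and one-carbon units fell in 8 of 17 cases, and 1 rose (median -0.77). ASNS, asparagine synthetase, measured 12.35, 12.55 and 11.67 in control cells and 10.54, 8.82 and 8.51 with Ra (-2.90 ± 0.67, limma adjusted p = 0.0182). ALDH1L2, the mitochondrial formyltetrahydrofolate dehydrogenase, measured 9.29, 8.75 and 7.02 against 5.31, 4.08 and 3.97 (-3.90 ± 0.89). PSPH, the last enzyme of serine synthesis, had 11.40, 11.83 and 11.27 against 10.16, 9.12 and 9.56 (-1.89 ± 0.24). In each of the 3 the groups were separate, and Ra replicate 1 was the highest Ra array. The first 2 steps of serine synthesis, PHGDH and PSAT1, fell by 1.28 ± 0.33 and 0.77 ± 0.22. The mitochondrial folate enzymes SHMT2 and MTHFD2 fell by 1.37 ± 0.30 and 1.14 ± 0.25, and PCK2, the mitochondrial phosphoenolpyruvate carboxykinase, fell by 1.72 ± 0.35. GLUL, glutamine synthetase, rose by 0.97 ± 0.23, from 9.69, 10.17 and 10.58 to 11.04, 11.21 and 11.10. The count of falling synthesis enzymes was 4 without control replicate 1, 10 without control replicate 3 and 4 without Ra replicate 2.

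In cysteine and glutathione metabolism 3 of 15 genes fell, CTH, SLC7A11 and CHAC1, and 0 rose (1 had a higher mean at an unadjusted p under 0.05). CHAC1 passed the filter on signal only with the control arrays of 48 h, so its call supports nothing. CBS, which acts upstream of CTH, differed by -1.11 ± 0.34 and just missed the threshold (limma adjusted p = 0.0502). The catalytic subunit of glutathione synthesis, GCLC, differed by -0.62 ± 0.22 and its partner GCLM by -0.44 ± 0.32. Glutathione reductase GSR was at 0.00 ± 0.19. The 12 other genes lay between -1.11 and 0.31. The count of falls was 0 without control replicate 1, 4 without control replicate 3 and 0 without Ra replicate 2. With CHAC1 set aside, the share passing is near the 13.1% of all genes and is no result about the list.

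Cytosolic aminoacyl-tRNA synthetases, which charge transfer RNA for translation in the cytosol, fell in 10 of 19 cases, with 0 rises and a median of -0.69. AARS1 went from 12.03, 11.60 and 10.71 to 10.31, 9.04 and 9.39 (-1.87 ± 0.39, limma adjusted p = 0.0126). GARS1, which also serves mitochondria, fell by 1.87 ± 0.41, WARS1 by 1.87 ± 0.39 and CARS1 by 1.67 ± 0.32. SARS1, IARS1, NARS1, TARS1 and EPRS1 fell by 1.39, 0.89, 0.70, 0.65 and 0.64 log2 units. YARS1 fell by 1.36 ± 0.35, but another probe set of it gave 0.31. HARS1, KARS1 and RARS1 did not pass, at -0.13, -0.09 and 0.06. The count of falling synthetases was 4 without control replicate 1, 12 without control replicate 3 and 7 without Ra replicate 2.

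The mitochondrial synthetases do the same chemistry in another compartment. Of 14 measured, 0 passed the limma test (2 had an unadjusted p under 0.05), and their median was 0.00. Their differences ran from -0.57 ± 0.20 for NARS2 to 0.73 ± 0.23 for AARS2. Without control replicate 3, 3 of them rose and 1 fell. No test of one list against the other was made.

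**Figure D3:**
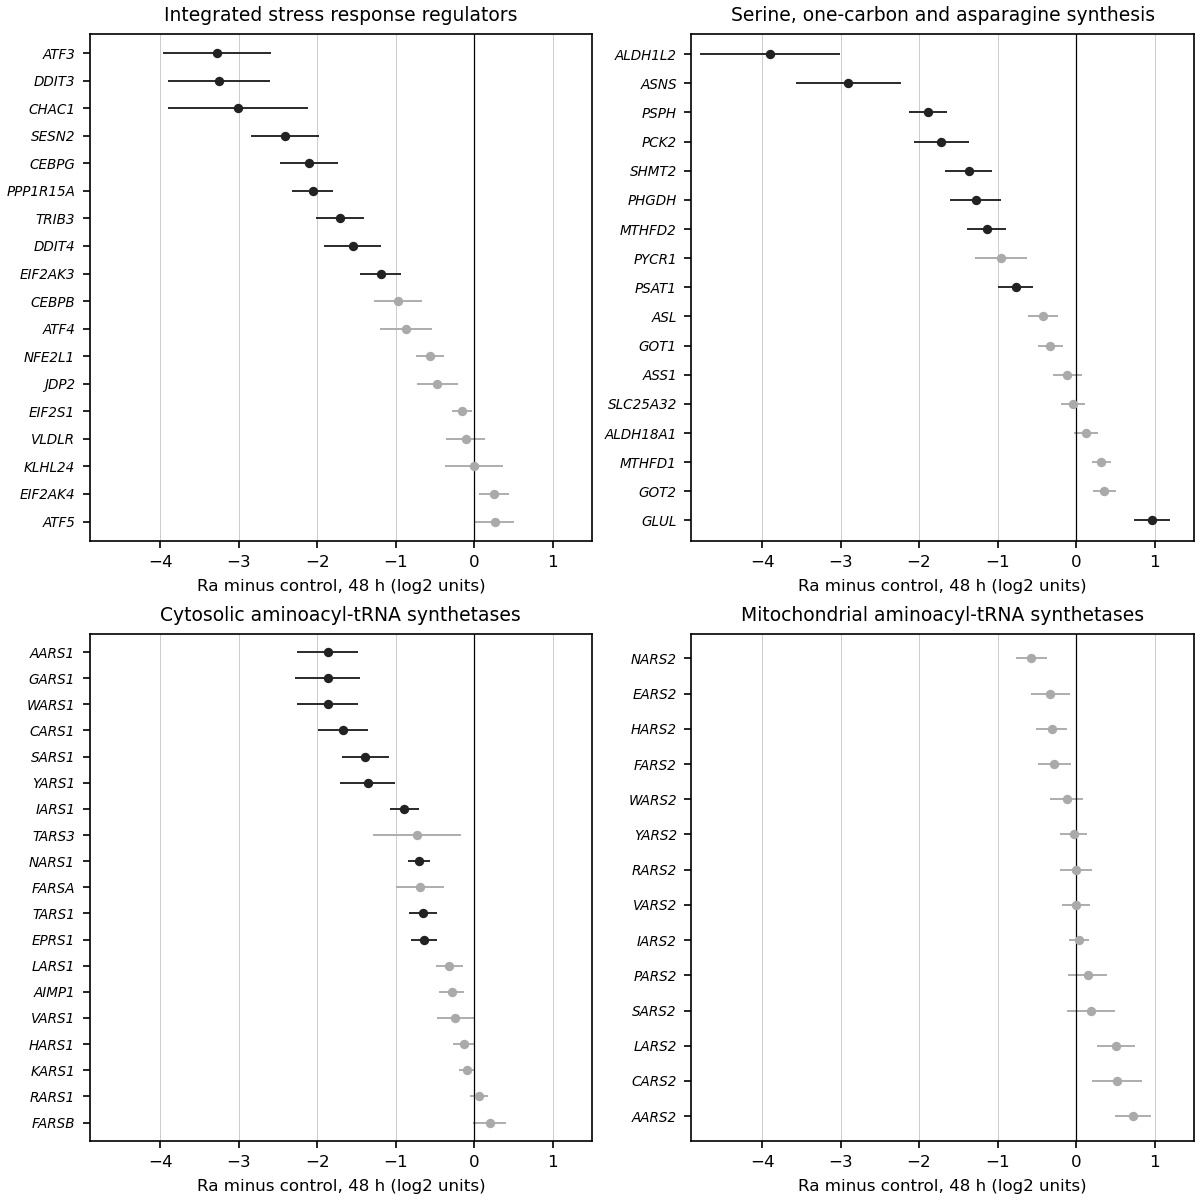
Difference between Ra and control cells at 48 h (horizontal axis, log2 units) for the measured members of 4 gene lists. Bars are SE from the fit to all 12 arrays, with 3 arrays per group. Black points passed the limma test over 10050 genes and grey points did not; 9 of 18 regulators, 8 of 17 synthesis enzymes and 10 of 19 cytosolic synthetases fell, GLUL rose, and 0 of 14 mitochondrial synthetases passed.

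The promoters of these genes were read for the word that ATF4 and C/EBP factors bind. The word searched was TGATGNAA on both strands, in 300 bases per gene (250 before the annotated start and 50 from it), taken from RefSeq sequence of GRCh38.p14. It occurred in 3.67% of the 27305 promoters searched and in 1.63% of those of the genes tested here. Among the genes that fell in the 4 lists of regulators, transporters, synthesis enzymes and cytosolic synthetases, 28 of 33 had a promoter entry and 11 of these held the word (39.3%). Among the 30 members of the 4 lists with an entry that did not fall, 1 held it (3.33%). Over all rising genes the share was 1.91%, and over all falling genes 4.34%. The 11 were AARS1, ASNS, ATF3, CARS1, CHAC1, IARS1, NARS1, SLC38A1, SLC3A2, SLC7A1 and TARS1. Of these, CHAC1 passed the filter on signal only with the control arrays of 48 h, so its fall was built in. The lists hold known ATF4 targets, so a high share in them is partly built in, and a match is a description of the sequence alone.

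The 250 bases before the start are shown for 3 of them, one from each of 3 of the lists, with the match in capitals. In ASNS (chr7:97872409-97872658, minus strand) it lies from -68 to -61, counted from the first base of the gene as 0, and reads along the gene. In CHAC1 (chr15:40953221-40953470, plus strand) it lies from -209 to -202, and in AARS1 (chr16:70289507-70289756, minus strand) from -187 to -180, both on the opposite strand and with the same 8 letters.
ASNS: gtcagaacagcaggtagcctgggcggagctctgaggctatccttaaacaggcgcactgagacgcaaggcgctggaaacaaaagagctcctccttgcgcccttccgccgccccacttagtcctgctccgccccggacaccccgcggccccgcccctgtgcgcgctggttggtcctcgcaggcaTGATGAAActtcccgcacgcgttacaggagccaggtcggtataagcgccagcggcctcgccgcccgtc
CHAC1: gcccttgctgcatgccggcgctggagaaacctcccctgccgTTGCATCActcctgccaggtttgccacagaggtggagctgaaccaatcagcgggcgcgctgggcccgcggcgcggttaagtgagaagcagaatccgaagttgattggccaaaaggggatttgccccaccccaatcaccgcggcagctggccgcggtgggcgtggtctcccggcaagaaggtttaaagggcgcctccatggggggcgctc
AARS1: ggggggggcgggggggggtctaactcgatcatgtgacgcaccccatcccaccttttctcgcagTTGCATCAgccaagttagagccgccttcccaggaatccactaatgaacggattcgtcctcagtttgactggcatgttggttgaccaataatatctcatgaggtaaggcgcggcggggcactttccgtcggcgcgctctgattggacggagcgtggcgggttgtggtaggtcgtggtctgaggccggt

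In the endoplasmic reticulum the means were lower with Ra for 22 of 22 chaperones and oxidoreductases, but 4 passed and fell: DNAJB9, FKBP14, HSPA5 and PDIA6 (14 of the 22 had lower means at an unadjusted p under 0.05). HSPA5, the chaperone BiP, measured 15.61, 15.48 and 14.56 in control cells and 14.46, 13.42 and 13.56 with Ra (-1.40 ± 0.40, limma adjusted p = 0.0379). DNAJB9, a co-chaperone of BiP, fell by 2.02 ± 0.60, a call lost in 18 of 28 other settings of the analysis. SDF2L1 had 12.00, 10.94 and 7.34 in control cells against 8.39, 7.09 and 7.34 with Ra (-2.49 ± 0.93, limma adjusted p = 0.0893), and CRELD2 had 13.50, 11.65 and 9.90 against 10.12, 10.08 and 10.08 (-1.59 ± 0.61, 0.0950). In both, control replicate 3 was level with the Ra arrays. Averaged over the list, the control arrays stood at 0.77, 0.13 and -0.89 from their mean and the Ra arrays at -0.72, -1.01 and -0.98. The count of falling chaperones by limma was 0 without control replicate 1, 15 without control replicate 3 and 0 without Ra replicate 2. With all arrays the share passing, 4 of 22, is little above the 13.1% of all genes and is no result about the list.

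The sensors and degradation factors of the endoplasmic reticulum fell in 5 of 21 cases, with 0 rises. ERN1, the sensor IRE1, went from 10.29, 10.57 and 9.31 to 8.90, 6.13 and 5.63 (-3.17 ± 0.66, limma adjusted p = 0.0126). XBP1, whose messenger RNA IRE1 splices, went from 11.78, 12.00 and 11.32 to 10.90, 10.00 and 10.09 (-1.37 ± 0.25, limma adjusted p = 0.00878). These 2 genes and EIF2AK3 were separate between the groups. HERPUD1 (-2.36 ± 0.60) and CREB3L2 (-1.44 ± 0.44) fell with overlapping arrays. The third sensor, ATF6, differed by -0.33 ± 0.22 and did not pass. The count of falling sensors and degradation factors was 2 without control replicate 1, 15 without control replicate 3 and 2 without Ra replicate 2. Of 39 genes for translocation and vesicle coats 6 fell, among them the COPII coat genes SEC24D (-1.59 ± 0.39) and SEC23B (-1.03 ± 0.19), and SPCS3, a signal peptidase subunit, rose by 1.18 ± 0.25. The 6 falls became 2, 20 and 2 without control replicate 1, control replicate 3 or Ra replicate 2. The share passing among these 39 genes is little above the 13.1% of all genes and is no result about the list.

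The stress element of these promoters was searched as CCAAT and CCACG with 9 bases of any kind between them, on both strands. It was found in 0.0806% of all promoters, 0.144% of those of the genes tested, 0.755% of falling genes and 0 of 576 rising genes. Of 20 measured chaperone genes with an entry 5 held it (25.0%), and of the 3 called ones 1 did. The list holds chaperones known to be driven by the unfolded protein response. A high share in it is therefore partly built in, and a match describes the sequence alone. Among the called genes of the 2 lists the element was present in HSPA5 and XBP1. It is shown in capitals in the 250 bases before the start of HSPA5 (chr9:125241344-125241593 of GRCh38.p14, minus strand), from -66 to -48, and HSPA5 is shown because it fell and carries the element.
HSPA5: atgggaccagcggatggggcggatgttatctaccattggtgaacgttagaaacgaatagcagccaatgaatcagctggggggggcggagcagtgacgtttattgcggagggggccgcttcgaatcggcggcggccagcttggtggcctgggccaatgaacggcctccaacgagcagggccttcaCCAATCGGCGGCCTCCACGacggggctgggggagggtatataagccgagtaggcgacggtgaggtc

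Mitochondrial chaperones and proteases fell in 4 of 13 cases. These were the protease LONP1 (-1.02 ± 0.22, limma adjusted p = 0.0136), CLPX (-0.81 ± 0.18), DNAJA3 (-0.73 ± 0.21) and YME1L1 (-0.51 ± 0.14), each without overlap (0, 5 and 2 falls without control replicate 1, control replicate 3 or Ra replicate 2). Among translation factors 3 of 36 fell and 1 rose. EIF5, which promotes GTP hydrolysis in start codon recognition, fell from 13.85, 13.67 and 13.17 to 12.76, 12.18 and 11.91 (-1.28 ± 0.23, limma adjusted p = 0.00878). EIF2S2, the beta subunit of eIF2, fell by 0.72 ± 0.16 and EIF1 by 0.33 ± 0.09. EIF4EBP2, a repressor of cap-dependent initiation, rose by 0.95 ± 0.17. Ribosome biogenesis genes fell in 4 of 38 cases, RRN3, NOP16, NOP58 and UTP4 (by 0.71, 0.70, 0.49 and 0.47 log2 units). Of 49 cytosolic ribosomal proteins 1 passed, RPL29 (0.35 ± 0.10). The shares passing among translation factors and ribosome biogenesis genes are near the 13.1% of all genes and are no result about these lists.

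Genes for copying DNA were higher with Ra. Of 26 genes for origin licensing and the replicative helicase, 14 rose and 0 fell, with a median of 1.02 log2 units. MCM10, which helps to activate the helicase, measured 4.63, 5.72 and 6.12 in control cells and 7.22, 7.50 and 8.35 with Ra (2.20 ± 0.35, limma adjusted p = 0.00790), with 1.21 and 1.22 from its other probe sets. ORC1, of the origin recognition complex, measured 3.56, 4.85 and 6.27 against 6.87, 6.40 and 7.77 (2.12 ± 0.53). MCM5 of the helicase ring measured 8.84, 9.39 and 10.16 against 10.69, 11.09 and 10.95 (1.45 ± 0.26). The 3 genes share an order in control cells, with replicate 1 lowest and replicate 3 highest, and the Ra arrays lie above them. All 6 ring subunits, MCM2 to MCM7, rose, by 1.07 to 1.45 log2 units, as did the GINS subunits GINS2 (1.51 ± 0.30) and GINS1 (1.33 ± 0.29) and the licensing factor CDT1 (1.22 ± 0.36). CDC6, which loads the ring with CDT1, stood out from the list: it had 11.25, 11.09 and 9.02 in control cells against 9.41, 8.76 and 9.36 with Ra (-1.28 ± 0.45, limma adjusted p = 0.0777).

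At the replication fork 18 of 32 genes rose and 0 fell (median 0.75). ASF1B, a histone chaperone, had 6.95, 7.91 and 8.31 in control cells and 9.53, 10.09 and 10.48 with Ra (2.31 ± 0.34, limma adjusted p = 0.00564). UHRF1, which guides maintenance methylation, rose by 1.86 ± 0.33, the ligase LIG1 by 1.58 ± 0.31 and the catalytic subunit POLE of polymerase epsilon by 1.46 ± 0.33. The second subunit of polymerase alpha, POLA2, rose by 1.39 ± 0.23 and the chromatin assembly subunit CHAF1A by 1.35 ± 0.25. PCNA, the sliding clamp, went from 11.81, 12.19 and 12.96 to 13.08, 13.63 and 13.59 (1.11 ± 0.23). All of these were separate between the groups. The licensing and fork lists had 8 rises each without control replicate 1, 17 and 23 without control replicate 3, and 12 and 13 without Ra replicate 2. Without control replicate 3, 2 licensing genes fell.

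**Figure D4:**
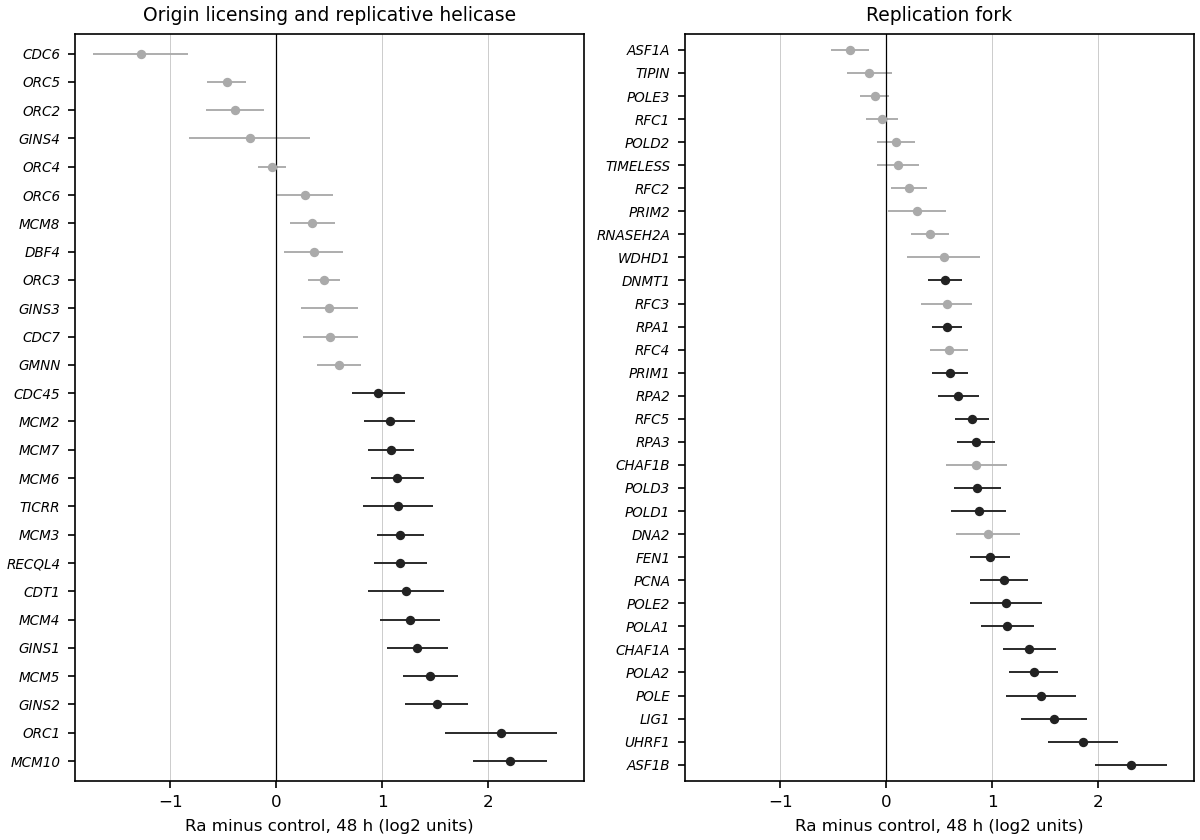
Difference between Ra and control cells at 48 h (horizontal axis, log2 units) for 26 genes of origin licensing and the helicase and 32 genes of the replication fork. Bars are SE from the fit to all 12 arrays, with 3 arrays per group. Black points passed the limma test over 10050 genes and grey points did not; 14 and 18 genes rose, and CDC6, which did not pass, lies at -1.28.

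Promoters of these genes were read for 4 words that E2F factors bind, TTTGGCGC, TTTCCCGC, TTTCGCGC and TTTGCCGC, on both strands. At least 1 of them occurred in 3.33% of all promoters and in 5.66% of those of the genes tested. Of 26 rising genes of the licensing and fork lists with an entry, 15 held one (57.7%), against 5 of 24 listed genes that did not rise (20.8%). Over all rising genes the share was 11.3% and over all falling genes 4.91%. Known E2F targets were among the reasons to list these genes. MCM6, which rose by 1.14 ± 0.25 from 9.70, 10.44 and 10.88 to 11.13, 11.68 and 11.63, carried 4 matches and is shown for that reason. Its 250 bases before the start (chr2:135876444-135876693, minus strand) hold the same 12 letters at 2 places, beginning at -152 and -90. Each is TTTGGCGC overlapped by TTTCGCGC on the other strand, in capitals.
MCM6: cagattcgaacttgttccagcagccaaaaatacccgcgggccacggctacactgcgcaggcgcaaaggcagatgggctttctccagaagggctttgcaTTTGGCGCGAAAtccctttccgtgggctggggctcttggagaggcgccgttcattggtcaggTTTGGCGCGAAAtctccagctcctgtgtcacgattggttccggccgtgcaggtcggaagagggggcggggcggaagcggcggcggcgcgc

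Supply of deoxynucleotides rose in 4 of 12 genes. RRM2, the regulated subunit of ribonucleotide reductase, went from 10.68, 11.40 and 12.01 to 12.44, 13.06 and 13.45 (1.62 ± 0.30, limma adjusted p = 0.00941). Thymidylate synthase TYMS rose by 0.97 ± 0.19, DCK by 0.91 ± 0.24 and DUT by 0.61 ± 0.17. The count was 2, 6 and 2 without control replicate 1, control replicate 3 or Ra replicate 2. In the salvage and synthesis of nucleotides 2 of 18 rose, PRPS2 (1.06 ± 0.24) and HPRT1 (0.58 ± 0.14). This share is near the 13.1% of all genes and is no result about the list.

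Among regulators of the passage from G1 into S phase 10 of 28 rose and 1 fell. CCNE2, a cyclin that activates CDK2, had 6.84, 6.75 and 7.52 in control cells and 8.45, 9.48 and 9.72 with Ra (2.18 ± 0.31, limma adjusted p = 0.00462). Its paralog CCNE1 had 5.66, 5.51 and 5.75 against 7.11, 7.32 and 8.16 (1.89 ± 0.27). SKP2, the ubiquitin ligase subunit that marks the inhibitor p27, rose by 2.06 ± 0.34, the phosphatase CDC25A by 1.59 ± 0.32 and CDK2 itself by 1.09 ± 0.29. The control arrays of CCNE1 lay close together, unlike those of the replication genes. The D-type cyclins went different ways. CCND1 (1.57 ± 0.44) and CCND3 (0.78 ± 0.20) rose, while CCND2 fell from 8.32, 9.55 and 9.04 to 6.87, 7.46 and 8.05 (-1.51 ± 0.37, limma adjusted p = 0.0222). The 10 rises of this list became 6 without control replicate 1, 14 without control replicate 3 and 7 without Ra replicate 2, where CCND2 did not pass.

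Of 23 genes for homologous recombination and crosslink repair 6 rose, led by the helicase BLM (2.09 ± 0.51), BRIP1 (1.71 ± 0.41) and BARD1 (1.55 ± 0.29), the partner of BRCA1 (3, 11 and 5 rises without control replicate 1, control replicate 3 or Ra replicate 2). Of 29 genes for G2 and the mitotic kinases 14 rose and 0 fell (median 0.84), and the mean was higher with Ra for 29 of 29. ESPL1, the separase, had 7.38, 7.59 and 8.27 against 9.08, 9.24 and 9.53 (1.54 ± 0.24, limma adjusted p = 0.00661). WEE1, which holds CDK1 inactive, rose by 1.47 ± 0.25, cyclin CCNA2 by 1.37 ± 0.32 and its transcription factor FOXM1 by 1.28 ± 0.30. CDK1 had 10.09, 10.78 and 11.31 in control cells and 11.64, 11.81 and 12.02 with Ra (1.10 ± 0.24). The count of rising G2 and mitotic kinase genes was 4 without control replicate 1, 27 without control replicate 3 and 10 without Ra replicate 2.

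Kinetochore, spindle, cytokinesis and condensin genes rose in 30 of 50 cases, with 0 falls, a median of 0.92 and higher means in 50 of 50. SPC25 and SPC24, which are subunits of the NDC80 complex, rose by 1.98 ± 0.38 and 1.56 ± 0.30. SPC25 had 7.24, 7.83 and 9.15 in control cells and 9.68, 10.24 and 10.24 with Ra. The kinetochore scaffold KNL1 rose by 1.51 ± 0.40, the kinesin KIF20A by 1.46 ± 0.28 and the condensin subunit NCAPH by 1.39 ± 0.38. Averaged over the 50 genes the control arrays stood at -0.56, -0.03 and 0.59 from their mean and the Ra arrays at 0.73, 0.94 and 1.17, so that control replicate 3 came close to Ra replicate 1 without reaching it. The count of rises was 7 without control replicate 1, 47 without control replicate 3 and 14 without Ra replicate 2. Chromatin proteins rose in 10 of 19 cases and H2AC6 fell. LMNB2 and LMNB1 of the nuclear lamina rose by 1.53 ± 0.30 and 1.44 ± 0.37, and the replication-linked variant H2AX by 1.19 ± 0.26. Of 13 tubulin genes 5 rose, by 0.76 to 0.93 log2 units, and TUBE1, which encodes epsilon-tubulin of the centriole, fell by 2.70 ± 0.60. Rising chromatin genes numbered 2, 12 and 6, and rising tubulins 1, 8 and 3, without control replicate 1, control replicate 3 or Ra replicate 2.

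Outside the cell cycle, output and feedback genes of the ERK kinase pathway rose in 7 of 26 cases, with 0 falls (1 had a lower mean at an unadjusted p under 0.05) and a median of 0.58. FOSL1 had 4.87, 5.69 and 6.32 in control cells and 6.89, 7.87 and 8.53 with Ra (2.14 ± 0.46, limma adjusted p = 0.0141). SPRY2, a feedback inhibitor, had 7.79, 8.32 and 8.05 against 9.33, 9.06 and 9.93 (1.39 ± 0.24), and TGFA, a ligand of the epidermal growth factor receptor, had 9.73, 9.53 and 10.34 against 11.06, 11.14 and 11.11 (1.24 ± 0.18). For SPRY2 and TGFA the lowest Ra array was clear of the highest control array. PLAUR (1.58 ± 0.41), JUNB (1.30 ± 0.25) and ETV4 (1.00 ± 0.23) rose as well, with CCND1. EREG, another ligand of that receptor, had a mean lower by 1.37 that did not pass (limma adjusted p = 0.159). The count of rising ERK genes was 3 without control replicate 1, 9 without control replicate 3 and 7 without Ra replicate 2.

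Matrix and TGF-beta genes rose in 13 of 38 cases, with 0 falls and a median of 0.65. SMAD3, a mediator of TGF-beta signals, measured 4.59, 4.12 and 5.24 in control cells and 6.10, 6.92 and 7.30 with Ra (2.12 ± 0.46), and 1.05 came from its other probe set. The inhibitory SMAD6 rose by 1.44 ± 0.28, THBS1, an activator of latent TGF-beta, by 1.89 ± 0.54 and the collagenase MMP1 by 1.79 ± 0.41. Receptors TGFBR2 and TGFBR1 rose by 0.75 ± 0.21 and 0.66 ± 0.17, and the latency proteins LTBP2 and LTBP3 by 1.54 ± 0.32 and 1.16 ± 0.34. The count of rising matrix genes was 2 without control replicate 1, 21 without control replicate 3 and 6 without Ra replicate 2. Metallothioneins, which bind zinc and copper, rose in 4 of 9 measured genes of the list: MT1M (1.10 ± 0.32), MT1X (1.06 ± 0.29), MT1H (0.87 ± 0.27) and MT2A (0.82 ± 0.22). MT1X had 12.12, 11.82 and 13.25 in control cells and 13.24, 13.39 and 13.73 with Ra, so control replicate 3 touched the Ra arrays. Only 1 of the 9 genes had no overlap between the groups, which held for 34.6% of all genes. The call of MT1M was lost in 16 of 28 other settings of the analysis. Those of MT1X, MT1H and MT2A were lost in 12, 19 and 11 of 27. The count of rising metallothioneins was 0 without control replicate 1, 7 without control replicate 3 and 0 without Ra replicate 2.

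Genes tied to the tubule and its injury moved in both directions. Of 26 injury markers 5 rose and 2 fell. SOX9, a factor of regenerating tubule cells, had 4.55, 5.22 and 5.55 in control cells and 7.36, 5.84 and 8.12 with Ra (2.00 ± 0.57, limma adjusted p = 0.0364), and CD44 rose by 0.79 ± 0.23 beside NT5E, CST3 (0.54 ± 0.15) and S100A10 (0.31 ± 0.09). The annexins ANXA1 and ANXA3 fell by 1.09 ± 0.23 and 0.93 ± 0.18. The 5 rises among injury markers became 1, 8 and 2 without control replicate 1, control replicate 3 or Ra replicate 2. Of the 11 measured proximal tubule genes CDH6, a cadherin, rose from 10.40, 11.30 and 12.09 to 12.89, 12.97 and 13.09 (1.72 ± 0.33), and MIOX, the renal myo-inositol oxygenase, fell from 10.24, 10.12 and 9.53 to 8.98, 9.15 and 8.64 (-1.04 ± 0.25). The groups were separate for both. PAX8, CDH16, DPP4 and HNF4G lay between -0.33 and 0.09. The share passing among the 11 proximal tubule genes is little above the 13.1% of all genes and is no result about the list. Of 28 junction genes 2 rose, CLDN2 and TM4SF1 (2.08 ± 0.49), and 1 fell, OCLN (-1.32 ± 0.40). The calls of OCLN, CLDN2 and TM4SF1 were lost in 16, 10 and 8 of 28 other settings of the analysis. Of 9 drug transporters 1 rose, ABCC3, an exporter of organic anions, from 8.33, 7.76 and 8.52 to 9.48, 10.28 and 9.66 (1.60 ± 0.24, limma adjusted p = 0.00584). ABCB1 differed by 0.45 ± 0.15 and did not pass. The shares passing among junction genes and drug transporters are near the 13.1% of all genes and are no result about these lists.

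Of 33 proteasome subunits 0 passed the limma test (7 had an unadjusted p under 0.05), and 4 rose without control replicate 3. Among 24 cytosolic heat shock genes the small heat shock protein HSPB8 fell by 0.70 ± 0.17, and among 25 glycolysis genes PDK1, which inhibits pyruvate dehydrogenase, fell by 0.85 ± 0.19. Of 25 genes for cholesterol and fatty acid synthesis HSD17B7 fell by 1.23 ± 0.23. Hypoxia-response genes fell in 4 of 18 cases, VEGFA, DDIT4, NDRG1 (-1.13 ± 0.29) and EPAS1 (-1.05 ± 0.22), and in 1, 5 and 1 cases without control replicate 1, control replicate 3 or Ra replicate 2. Autophagy genes fell in 3 of 30 cases: MAP1LC3B (-0.73 ± 0.18), ATG3 (-0.69 ± 0.16) and CALCOCO2 (-0.87 ± 0.21), the last with 0.03 from another probe set. Of 44 genes of oxidative phosphorylation 3 rose and 1, cytochrome c (CYCS, -0.47 ± 0.12), fell. Shares near or under the 13.1% of all genes are no result about a list. This holds for the autophagy, oxidative phosphorylation and lysosome lists. It also holds for the proteasome, heat shock, glycolysis, and cholesterol and fatty acid synthesis lists.

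**Figure D5:**
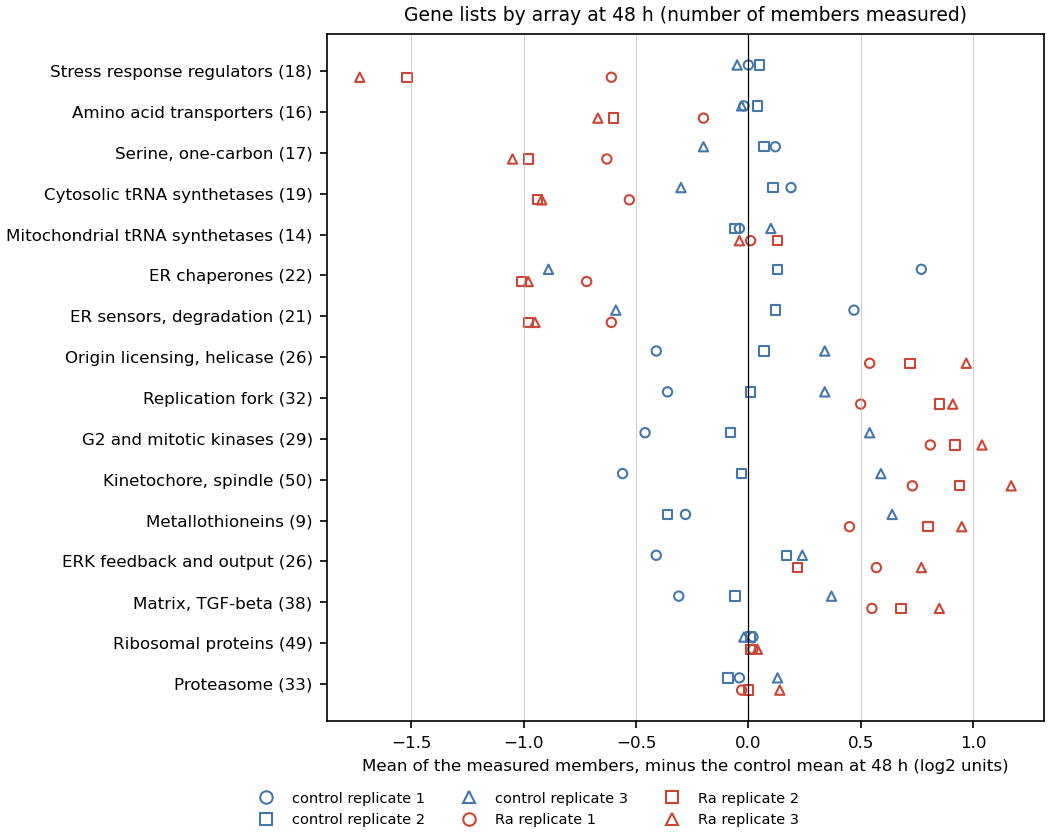
Mean over the measured members of 16 gene lists in each 48 h array, minus the mean of the 3 control arrays (horizontal axis, log2 units). Blue symbols are control and red symbols Ra arrays, and the shape gives the replicate. Control replicate 3 (blue triangles) lies among the Ra arrays for the chaperones of the endoplasmic reticulum, the metallothioneins and the ERK genes. It is about level with Ra replicate 1 for the sensors and degradation factors of the endoplasmic reticulum. For the cell cycle lists it is the control array nearest to the Ra arrays. The groups lie together for ribosomal proteins, the proteasome and the mitochondrial synthetases.

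The effect at 48 h was set against that at 12 h, measured on other arrays. At 12 h 1889 genes passed the limma test (18.8%). Of the 1316 genes of 48 h, 209 had also passed at 12 h with the same sign, 64 with the opposite sign, and 1043 had not passed. The difference between the effects passed the test for 1042 genes (10.4%), and 673 of the 1316 were among them. This number was 175, 2 and 2219 without control replicate 1, 2 or 3 of 48 h, 357 and 14 without Ra replicate 2 or 3 of 48 h, 430 without Ra replicate 1 of 12 h and 636 without control replicate 2 of 12 h. Levels of the leading genes at 12 h are given side by side. INHBE averaged 4.38 without and 5.24 with Ra at 12 h, against 11.87 and 5.39 at 48 h. DDIT3 averaged 8.34 and 8.23 at 12 h against 13.19 and 9.94 at 48 h, and ASNS averaged 9.22 and 10.14 against 12.19 and 9.29. For these 3 genes the control mean of 48 h stood above the other 3 group means. MCM5 averaged 10.85 and 11.07 at 12 h against 9.46 and 10.91 at 48 h, and CCNE2 averaged 9.72 and 10.07 against 7.04 and 9.21. For these 2 genes the control mean of 48 h stood below the other 3. ABCC3 differed in this, at 7.88 and 8.78 at 12 h and 8.20 and 9.80 at 48 h. CCND2 had 9.76 and 8.37 at 12 h and 8.97 and 7.46 at 48 h. Both genes had the same sign of the Ra difference at both times. List means were also set against the control mean of 48 h. Stress response regulators had -1.91 to -1.57 (control, 12 h), -1.67 to -1.48 (Ra, 12 h) and -1.73 to -0.61 (Ra, 48 h). Kinetochore and spindle genes had 1.19 to 1.30, 1.07 to 1.29 and 0.73 to 1.17. The control arrays of 48 h, at -0.05 to 0.05 for the regulators, stood apart from all other arrays in that list. For kinetochore and spindle genes they ran from -0.56 to 0.59. There they did not overlap the other arrays, but control replicate 3 came close to Ra replicate 1 of 48 h (0.73). Matrix genes had 0.31 to 0.51, 0.70 to 0.72 and 0.55 to 0.85.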

How the data were processed

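The arrays are Affymetrix expression arrays of biotin-labelled RNA. The deposited log2 values were made with GCRMA, per the submitters' processing notes. No source used here gives its version or which arrays were normalized together. Arrays give no read depth, so their number, 3 per group, limits the precision. All 12 arrays were quantile-normalized over 54675 probe sets. Probe sets with 1 gene symbol in the platform annotation that reached 5 log2 units on at least 3 arrays were kept (17339), and 1 was used per gene. The fit used limma 3.58.1 in R 4.3.3 on 4 group means (8 residual degrees of freedom), with a variance factor for each group and an intensity trend. Adjustment was by Benjamini-Hochberg at 0.05, and the fit was tested on simulated data.

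Named genes are the 12 largest rises and 12 largest falls among genes that passed, changed at least 2-fold and did not overlap, up to 6 members with the largest differences of each of 52 gene lists, every member of the stress response regulators and of small families, and GAPDH and ACTB. Other named genes were chosen after their values were seen. The comparison, lists and fit were chosen with earlier results of these data known. Replicate numbers were not treated as pairs. P-values and SEs rest on the spread within all 4 groups, with the 12 h arrays included, and this spread may in part be technical. Promoters were matched by symbol to RefSeq sequence of GRCh38.p14.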

Additional observations from a re-analysis of the deposited data

Results flagged for a closer look

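For 21 of the 24 genes with the largest rises and falls, the effect of Ra at 48 h differed from that at 12 h by limma's test of the difference itself, with adjustment over the 10050 genes. Over all genes tested the share was 10.4%. The 24 were chosen for their differences at 48 h, which enter this test, so a high share among them is built in and the values are a description. The values here are the 48 h effect minus the 12 h effect in log2 units.

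Among the falling genes INHBE had -7.34 ± 1.70 (SE, adjusted p = 0.0241 by limma), from an effect of 0.85 at 12 h to -6.49 at 48 h. The enzymes and carriers of amino acid and folate metabolism were ALDH1L2 at -5.33, CTH at -4.76 and SLC7A11 at -4.46. The stress factors were ATF3 at -4.33 and DDIT3 at -3.14. ANK2 was at -5.19, with an effect of 1.17 at 12 h. CLIP4 was at -3.37, CAMTA2 at -3.13, IL20RB at -3.02 and ITPKA at -2.92. CLIP4 and IL20RB passed the filter on signal only with the control arrays of 48 h, so their values rest on that group. In INHBE, ANK2, ALDH1L2, CTH, SLC7A11 and ATF3 the mean was higher with Ra at 12 h and lower at 48 h.

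Among the rising genes MCM10 had 2.39 ± 0.40 (adjusted p = 0.0117 by limma), from -0.18 at 12 h to 2.20 at 48 h. The other cell cycle genes were ASF1B at 2.08 and CCNE2 at 1.82. CLDN2 was at 2.24, LYPD1 at 2.17, NT5E at 2.13, FOSL1 at 2.01, SMAD3 at 1.97, CTHRC1 at 1.67 and SLFN13 at 1.49. All 10 were higher with Ra at 48 h, and MCM10 and CLDN2 had lower means with Ra at 12 h. H2AC6, EEIG2 and PTPRE did not pass this test.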

How the results depend on the processing

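The count of 1316 genes at 48 h, by limma, depended on normalization, variance model, filter and single arrays. It was 0 in the deposited values (lowest adjusted p = 0.116), 0 in the deposited values of the 6 arrays of 48 h, 639 in those 6 arrays after quantile normalization, 2 of 19775 genes with no filter on signal, 818 without probe set types that can cross-hybridise, 3013 with 1 variance for all groups and 3853 with a variance factor for each array. An unadjusted p under 0.05 was reached by 1730 genes in the deposited values and 1748 in those of the 6 arrays. Leaving out 1 array gave 0 to 2582. Chosen after seeing the data, it was 575 in the deposited values without Ra replicate 2, 2050 without Ra replicate 2 and control replicate 3, and 579 with a 2-fold minimum. The count of 1042 genes whose effects differed between the times was 7 in the deposited values, 2 with those and 1 variance, 3404 with a variance factor for each array, 11 with no filter, 653 without cross-hybridising types, 669 with no intensity trend, 296 in the deposited values without Ra replicate 2, 1680 without both arrays, and 2 to 2219 on leaving out 1 array. The cause was not tested. With the replicate number as a block within each time, 1690 genes passed at 48 h and 1600 in the difference between times; the pairs' deviations correlated at 0.18, 0.42 and 0.34 at 12 h and at 0.30, -0.22 and 0.097 at 48 h, so the numbers were not taken to pair the samples at 48 h; at 12 h every pair was over 0.1, which bears on the blocked count of the difference between times. All 1316 genes kept their sign in each refit, except 1 of 1316 with the mean of probe sets and 11 of 968 measured without cross-hybridising types, among them YARS1 (0.31) and CALCOCO2 (0.03). Of the 24 largest changes, 19 passed without Ra replicate 2, 24 without control replicate 3 and 20 in the 6 arrays of 48 h alone, and none passed in the deposited values. Some calls named above were lost in many settings. These include SLC7A11 (15 of 28), CREB3L2 and SLC1A4 (18 of 27 each) and MT1H (19 of 27).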

Other observations

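Some genes of lists with few calls are given as single values. In the p53 list 1 of 22 genes rose and 2 fell. Among 28 interferon-response genes 1 rose and 2 fell, and among 35 lysosome genes 2 rose and 2 fell. These shares are near the 13.1% of all genes and are no result about the lists. Of 22 apoptosis genes 3 rose and 2 fell. GADD45A, a growth arrest and DNA damage gene, fell from 11.95, 12.23 and 12.50 log2 units in control cells to 10.99, 10.67 and 10.20 with Ra (-1.61 ± 0.27 SE, adjusted p = 0.00844 by limma). The death receptor gene FAS rose from 9.53, 9.60 and 10.37 to 11.03, 10.89 and 11.11 (1.18 ± 0.20), and the initiator caspase CASP2 rose by 1.01 ± 0.20. Among interferon-response genes IRF1, a transcription factor, fell by 1.30 ± 0.29. These 4 calls were lost without control replicate 2 or Ra replicate 3 of 48 h and in the deposited values. That of IRF1 was also lost without control replicate 1 of 48 h. IFI44L passed narrowly (1.92 ± 0.60, adjusted p = 0.0497 by limma), and its call was lost in 18 of 27 other settings. The calls of MITF (0.80 ± 0.21), a factor of lysosomal and melanocyte genes, and ATP6V1C1 (-0.85 ± 0.23), a subunit of the proton pump of lysosomes, were lost in 11 and 12 of 28 settings. C5AR1, the receptor of complement fragment C5a, was at 6.74, 5.83 and 5.61 in control cells of 48 h and under the threshold of 5 on the other 9 arrays, with 3.98, 3.27 and 3.03 in Ra-treated cells of 48 h; it passed the filter on signal only with that group, and no test is given.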
